A study of Mus musculus with 40 samples.

Results

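The AP-1 Fos and Jun subunits are the transcription factor genes Fos, Fosb, Fosl2, Jun, Junb and Jund, and they were taken by gene name from the count table, which gave 6 of the 55539 features listed. All 6 passed the count filter that left 15224 features to test. The series measured RNA in the somatomotor cortex, left hemisphere, of 3xTg-AD mice, all female and of a line kept on C57BL/6J that carries mutant human APP and MAPT transgenes under the neuronal Thy1 promoter, at 2 to 4 months of age. Mice received 1 to 5 weight-drop closed-head injuries (CHI) once daily under isoflurane, and sham-injured mice received the anesthesia alone. The 12 groups were sham-injured (n = 4), 1xCHI, 3xCHI and 5xCHI at 30 min (n = 3 each), at 4 h (n = 3, 2 and 3) and at 24 h (n = 4 each) after the last injury, and 2xCHI and 4xCHI at 24 h (n = 3 each), which are also the states just before the third and the fifth injury. Below, 24 h without an injury number means 1xCHI, 3xCHI and 5xCHI (n = 12), and 2xCHI and 4xCHI are given by name. All mice carry the transgenes, so no group shows these genes without them. The sham-injured mice were pooled over different time points and numbers of anesthesia exposures, and the labels do not tell these apart. No sham-injured group stands for 30 min alone, so injury and anesthesia or handling cannot be told apart at that time.

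AP-1 is a dimer. A Fos family protein pairs with a Jun family protein through a leucine zipper, while Jun proteins can also pair with each other, and the dimer binds a short DNA element in promoters and enhancers. Fos, Fosb and Junb are immediate early genes: in neurons, calcium entry and the ERK and CREB pathways start their transcription within minutes without new protein synthesis, and the transcripts decay quickly. Jund is expressed in resting cells and changes little, Jun is known for its part in the neuronal response to axon injury, and Fosl2 (Fra-2) is a slower member of the Fos family.

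The samples held 15926014 to 27859547 summed counts (median 19028778), and levels are given in CPM, the counts of a gene relative to the library total, scaled by TMM factors of 0.945 to 1.03. The cortical excitatory neuron markers Slc17a7, Neurod6, Tbr1, Cux2 and Camk2a were detected in every sample, with Slc17a7 at 926 to 1358 CPM. Single libraries stood apart in markers of neighbouring tissue: the summed choroid plexus markers reached 2516 CPM in the 5xCHI 30 min sample 31 (median of 39 samples 20.8), and the summed striatal markers reached 638 CPM in the 1xCHI 24 h sample 26 (median 139). The first principal component held 30.5% of the variance and separated samples 1 to 18 from samples 19 to 40 on average, which is a split by sample number and not a batch named by the labels. In bulk tissue, fewer cells of a type and less RNA per cell cannot be told apart.

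The promoters of Fos, Fosb and Junb, 3 members that moved together across the samples, are shown first. Whether their sequences have a part in this was not tested. Each line gives the 250 bases upstream of the RefSeq start on the gene's own strand (GRCm38.p6), at chr12:85473640-85473889 (Fos, plus strand), chr7:19310046-19310295 (Fosb, minus strand), chr8:84978749-84978998 (Junb, minus strand), with TGACG, the half-site of the cAMP response element read on both strands, in capitals.
Fos: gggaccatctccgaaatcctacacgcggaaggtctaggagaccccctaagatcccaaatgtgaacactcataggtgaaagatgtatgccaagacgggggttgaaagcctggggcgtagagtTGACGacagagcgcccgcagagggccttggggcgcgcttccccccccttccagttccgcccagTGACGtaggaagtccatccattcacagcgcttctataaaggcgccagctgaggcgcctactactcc
Fosb: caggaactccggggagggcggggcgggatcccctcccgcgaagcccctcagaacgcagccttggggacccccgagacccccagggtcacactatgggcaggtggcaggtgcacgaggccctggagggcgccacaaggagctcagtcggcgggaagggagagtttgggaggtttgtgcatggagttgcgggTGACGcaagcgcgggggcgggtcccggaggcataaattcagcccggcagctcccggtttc
Junb: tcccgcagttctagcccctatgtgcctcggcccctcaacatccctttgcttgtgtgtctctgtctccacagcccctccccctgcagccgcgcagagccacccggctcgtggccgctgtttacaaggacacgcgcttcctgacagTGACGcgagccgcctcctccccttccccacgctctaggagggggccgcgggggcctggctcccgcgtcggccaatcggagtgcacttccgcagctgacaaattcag

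Fos held 2 matches to TGACG, with first bases 129 and 66 bases before the start, Fosb held 1 at 60 bases and Junb held 1 at 106 bases. The stretches of Fosl2, Jun and Jund before their RefSeq starts held none. RefSeq and GENCODE starts differ. The windows of Fos and Jun end exactly at the GENCODE starts given below, and those of Fosb and Junb end close to them. The Fosl2 window (chr5:32136222-32136471) lies inside the GENCODE gene, and the Jund window (chr8:70697489-70697738) ends well before the GENCODE start. For Fosl2 and Jund, the lack of a match therefore says nothing of the stretch before the GENCODE start. Of 32817 promoter stretches of 250 bases, 17.7% held TGACG on either strand. The median GC content of all stretches was 52.4%. It was 58.4% for Fos, 68.8% for Fosb, 66.4% for Junb, 64.4% for Fosl2, 61.2% for Jun and 47.6% for Jund. The full AP-1 element TGANTCA was found in none of the 6 members and in 6.75% of all stretches, and the CArG box bound by serum response factor was also found in none of the 6 and in 1.47% of all. A match is a description of the letters, and elements outside these windows were not searched. The members lie on chromosome 12 (Fos, 85473890 to 85477273), 7 (Fosb, 19302696 to 19310051), 5 (Fosl2, 32135801 to 32157842), 4 (Jun, 95049034 to 95052222) and 8 (Junb, 84974484 to 84978718, and Jund, 70698949 to 70700616) in GENCODE M21, and Jun and Jund are single-exon genes.

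Fos, which encodes the partner that has to pair with a Jun protein, had both its highest and several of its low samples at 30 min. Values are given in the order of the sample numbers in the labels. Sham-injured samples were at 18.3, 73.6, 33.9 and 18.7 CPM. At 30 min after the first injury the samples were at 76.7, 111 and 14.3 CPM, after 3xCHI at 197, 21.2 and 278 CPM, and after 5xCHI at 32.0, 215 and 22.5 CPM. Of these 9 samples, 5 were above the highest of the 12 samples at 24 h after 1xCHI, 3xCHI or 5xCHI (43.8 CPM) and 4 were above the highest sham-injured, 2xCHI or 4xCHI sample (98.1 CPM). The 4 samples not above 43.8 CPM lay within the range of the other groups, so every 30 min group held both high and low samples.

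At 4 h, Fos was at 29.5, 16.5 and 13.9 CPM after 1xCHI, 14.9 and 16.4 CPM after 3xCHI, and 9.60, 15.7 and 13.6 CPM after 5xCHI. At 24 h the levels were 24.8, 16.8, 43.8 and 11.9 CPM after 1xCHI, 16.3, 20.3, 23.5 and 15.5 CPM after 3xCHI, and 9.50, 15.4, 13.3 and 9.61 CPM after 5xCHI. The 2 groups between injuries were at 38.9, 9.23 and 22.0 CPM (2xCHI) and 11.8, 98.1 and 38.2 CPM (4xCHI). Outside 30 min, the sham-injured sample 20 and the 4xCHI sample 25 were the highest 2 samples for Fos. By group mean, the order ran from 3xCHI at 30 min (165 ± 131 CPM, SD, n = 3) over 5xCHI at 30 min (89.9 ± 109, n = 3) and 1xCHI at 30 min (67.4 ± 49.1, n = 3) to 4xCHI (49.4 ± 44.3, n = 3) and sham-injured (36.1 ± 26.0, n = 4), with 5xCHI at 24 h lowest (11.9 ± 2.88, n = 4). Neighbours in that order differed by less than the larger of their SDs.

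Fosb, whose shorter splice form is the long-lived ΔFosB, cannot be resolved into splice forms in gene counts. Its sham-injured samples were at 7.97, 21.9, 16.6 and 11.3 CPM. At 30 min it was at 61.1, 116 and 12.9 CPM after 1xCHI, 172, 24.3 and 227 CPM after 3xCHI, and 22.5, 208 and 19.1 CPM after 5xCHI. The 5 samples high in Fos were the 5 samples above the highest Fosb level at 24 h (28.0 CPM), which is also above every sham-injured, 2xCHI and 4xCHI sample, and all 9 samples lay above the 24 h median.

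Later Fosb levels were low. At 4 h they were 11.7, 20.9 and 9.93 CPM (1xCHI), 7.64 and 10.2 CPM (3xCHI), and 8.29, 27.5 and 8.31 CPM (5xCHI). At 24 h they were 10.3, 8.12, 28.0 and 8.05 CPM (1xCHI), 7.81, 9.39, 12.9 and 13.5 CPM (3xCHI), and 9.03, 11.1, 12.3 and 7.94 CPM (5xCHI). The 2xCHI samples held 11.9, 7.23 and 10.5 CPM and the 4xCHI samples 11.6, 27.0 and 12.7 CPM. The 3 groups at 30 min had the highest means (141, 83.1 and 63.4 CPM for 3xCHI, 5xCHI and 1xCHI), each with an SD of 51.7 CPM or more, and the means of the other 9 groups lay between 8.93 and 17.1 CPM.

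Junb encodes the Jun family member that is induced with Fos and is a weaker activator than Jun. Sham-injured samples were at 50.9, 131, 53.2 and 46.8 CPM. At 30 min Junb was at 158, 133 and 35.2 CPM after 1xCHI, 242, 57.3 and 267 CPM after 3xCHI, and 74.5, 251 and 49.3 CPM after 5xCHI, and 6 of the 9 samples were above the highest of the 12 samples at 24 h after 1xCHI, 3xCHI or 5xCHI (68.3 CPM), while 3 were above the highest sham-injured, 2xCHI or 4xCHI sample (181 CPM). The 5 samples high in Fos and Fosb were also the 5 highest of the 9 for Junb.

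At 4 h, Junb was at 64.5, 65.9 and 34.0 CPM (1xCHI), 40.1 and 46.4 CPM (3xCHI), and 40.1, 67.7 and 39.0 CPM (5xCHI). At 24 h it was at 68.3, 45.9, 60.7 and 31.2 CPM (1xCHI), 48.9, 54.1, 54.8 and 44.4 CPM (3xCHI), and 44.9, 50.5, 38.7 and 33.6 CPM (5xCHI). The 2xCHI samples were at 60.9, 38.0 and 42.3 CPM and the 4xCHI samples at 33.7, 181 and 86.3 CPM. Samples at 4 h and 24 h overlapped throughout, while the sham-injured sample 20 and the 4xCHI sample 25 reached the levels of high 30 min samples.

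Fosl2 at 30 min was at 69.2, 70.0 and 32.5 CPM after 1xCHI, 21.8, 24.8 and 45.3 CPM after 3xCHI, and 35.1, 41.0 and 19.6 CPM after 5xCHI. Its sham-injured samples were at 31.1, 49.4, 42.7 and 19.4 CPM, and its samples at 24 h after 1xCHI, 3xCHI or 5xCHI lay between 16.2 and 28.3 CPM. At 4 h it was at 46.9, 23.5 and 25.7 CPM (1xCHI), 15.8 and 21.9 CPM (3xCHI), and 17.7, 27.5 and 26.0 CPM (5xCHI), and 2 of the 9 samples at 30 min were above the highest of these, against 6 of 9 above the highest at 24 h. The 2xCHI samples were at 33.0, 22.8 and 24.2 CPM and the 4xCHI samples at 28.0, 54.5 and 23.4 CPM. Its 2 highest samples at 30 min followed the first injury, whereas the highest Fos, Fosb and Junb samples followed the third injury.

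Jun, the founding AP-1 subunit, stayed within a narrow range in most samples. It was at 40.0 to 54.8 CPM in sham-injured samples, 41.8 to 94.8 CPM at 30 min, 44.5 to 75.6 CPM at 4 h and 38.5 to 98.2 CPM at 24 h. Its highest sample was not at 30 min but the 5xCHI 24 h sample 11 (98.2 CPM), where the other 3 samples of the group held 49.7 to 50.4 CPM. Sample 11 also had the highest summed astrocyte (5889 CPM), microglia (481 CPM) and oligodendrocyte (8487 CPM) markers of the 39 samples, and the part of these in its Jun level was not tested. Jund was at 112 to 126 CPM in sham-injured samples, 99.8 to 194 CPM at 30 min, 98.5 to 169 CPM at 4 h and 109 to 169 CPM at 24 h, and these ranges overlapped.

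**Figure D1:**
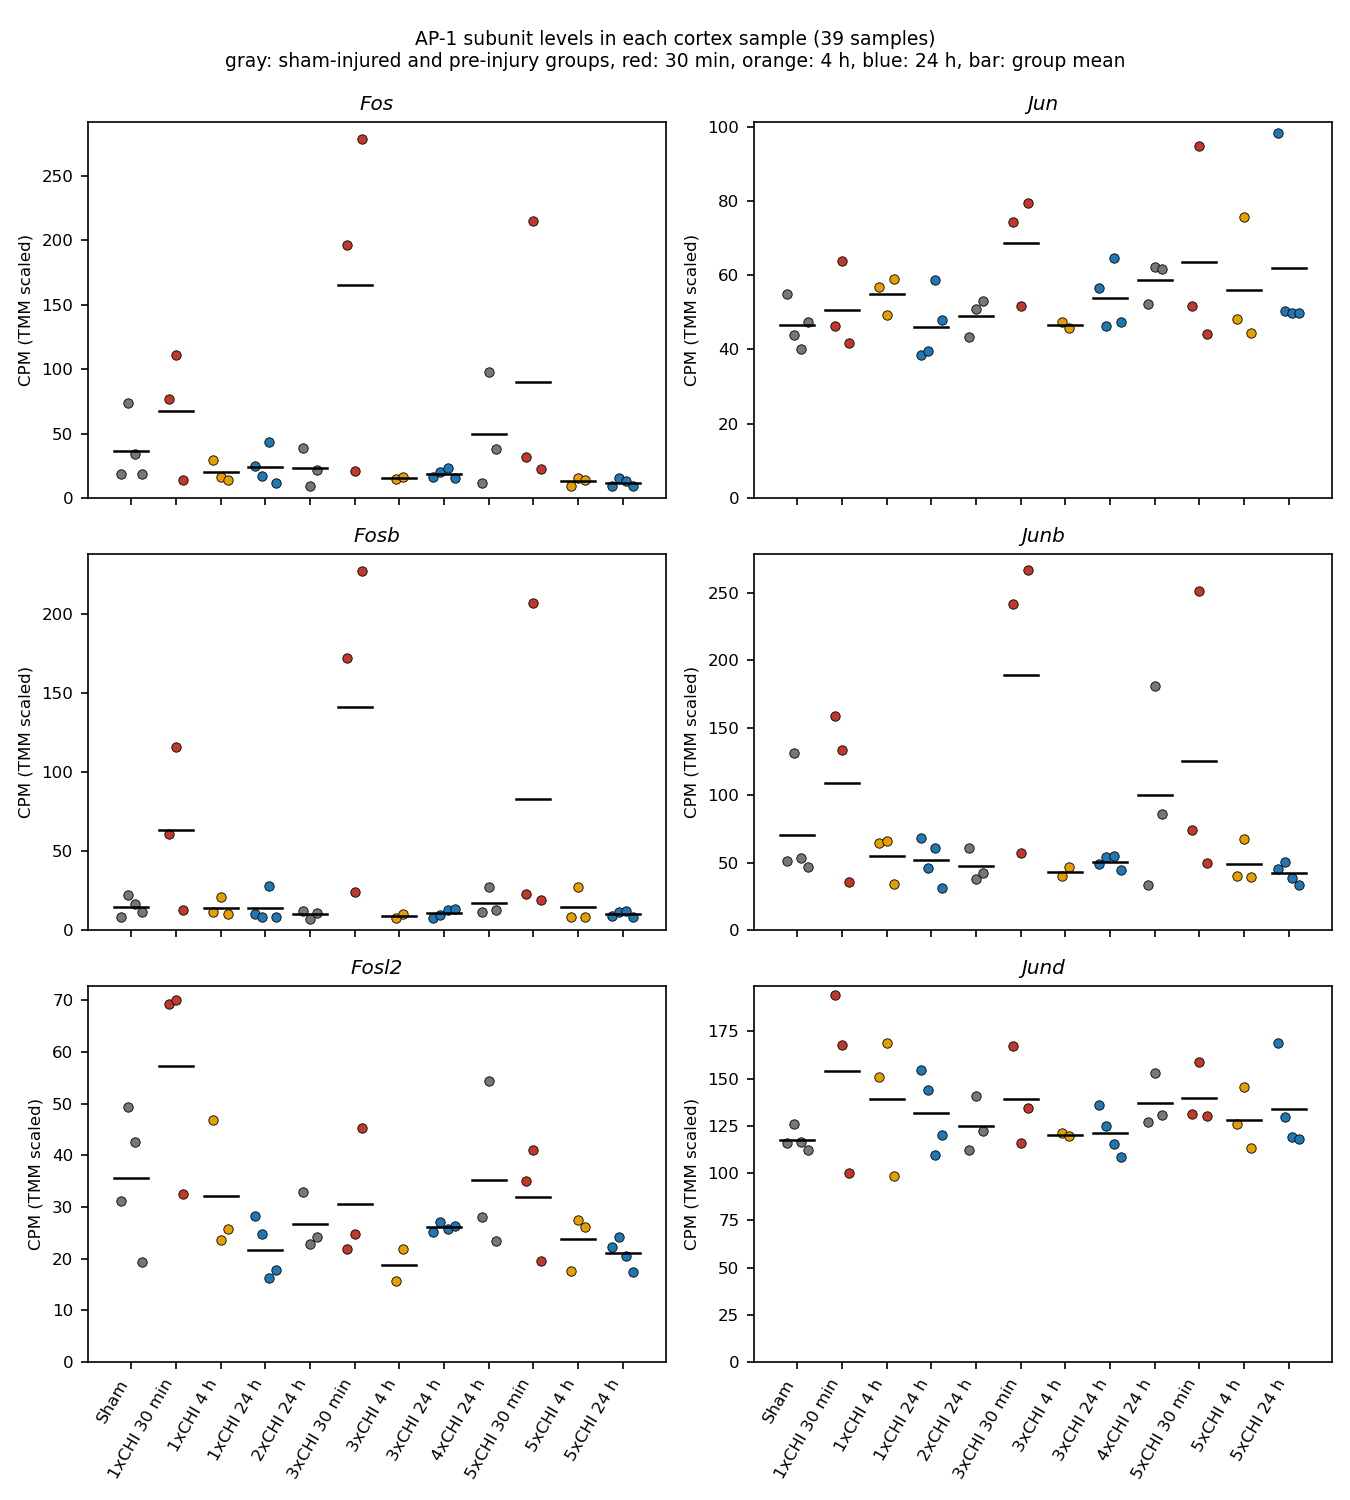
Levels of the 6 members in CPM (linear axes from 0) for each of the 39 samples in the 12 groups, with a bar at each group mean. High Fos, Fosb and Junb points are found among the red 30 min samples, 5 of 9 for Fos above all 12 blue samples (24 h after 1xCHI, 3xCHI or 5xCHI) and 4 of 9 above every gray sample, and the sham-injured and 4xCHI groups hold 1 high sample each for Fos and Junb.

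The comparison of 30 min with 24 h, averaged over 1xCHI, 3xCHI and 5xCHI, asked which subunits were raised soon after an injury. Fosb rose most, by 2.98 on the log2 scale (SE 0.406, 7.88-fold, edgeR adjusted p = 0.000445), and was first of all 15224 features by p. Fos rose by 2.50 (SE 0.429, 5.66-fold, edgeR adjusted p = 0.00594) and Junb by 1.52 (SE 0.301, 2.87-fold, edgeR adjusted p = 0.0199). The 3 called members compare with 22 called features in all (0.145%), of which 19 were higher at 30 min (0.125%). That total ran from 4 features without sample 8 to 192 without sample 27, and from 2 with only the groups compared to 52 with DESeq2. Mean levels were 108 ± 99.2 CPM at 30 min against 18.4 ± 9.37 CPM at 24 h for Fos, 95.9 ± 86.9 against 11.5 ± 5.57 CPM for Fosb, and 141 ± 93.2 against 48.0 ± 10.7 CPM for Junb (SD, n = 9 and 12).

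The other 3 members did not pass this test. Fosl2 had a log2 fold change of 0.74 (SE 0.186, edgeR adjusted p = 0.119, and 0.0243 with DESeq2). Jun had 0.17 (95% interval -0.11 to 0.45, edgeR adjusted p = 0.580) and Jund 0.16 (-0.05 to 0.37, edgeR adjusted p = 0.522). All 6 estimates were above 0, with a median of 1.13 against -0.01 over all features. At the unadjusted level 4 members and 10.5% of features had p under 0.05.

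The calls of Fos and Junb rested on few samples. Without the 5xCHI 30 min sample 8, Fosb had a log2 fold change of 2.31 (edgeR adjusted p = 0.00358), Fos had a log2 fold change of 1.93 (edgeR adjusted p = 0.0794) and Junb 1.18 (edgeR adjusted p = 0.160), which left Fosb as the only called member. Junb also lost its call without any 1 of the 30 min samples 4, 13, 14 or 22 (edgeR adjusted p from 0.0509 to 0.0826) and with the sample number as a covariate (log2 fold change 1.30, edgeR adjusted p = 0.142). Within samples 1 to 18, the difference in mean log2 CPM was 2.32 for Fos, 2.96 for Fosb and 1.38 for Junb (6 samples against 5), and within samples 19 to 40 it was 1.36, 1.67 and 0.81 (3 against 7).

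The marker values overlapped between the 2 times. The summed microglia markers ran from 191 to 257 CPM at 30 min and from 189 to 481 CPM at 24 h, and the summed endothelium markers from 113 to 189 and from 93.0 to 167 CPM. The summed hemoglobin and Alas2 level ran from 86.2 to 514 CPM at 30 min and from 126 to 382 CPM at 24 h, with the 1xCHI 30 min samples 13 and 14 highest at 514 and 504 CPM. The part of blood in the levels of those 2 samples was not tested. The mitochondrial share of counts was 6.29 to 10.3% at 30 min and 5.87 to 8.41% at 24 h. The same samples 13 and 14, which are 2 of the 5 samples high in Fos, Fosb and Junb, had the highest mitochondrial shares of the 39 samples (10.3 and 10.1%), the lowest TMM factors (0.945 and 0.960) and first principal component scores of -45.7 and -31.4, and the part of these in their levels was not tested.

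At 4 h, no member passed the test against 24 h. The log2 fold changes were -0.15 (Fos), 0.10 (Fosb), 0.09 (Fosl2), -0.03 (Jun), 0.03 (Junb) and 0.00 (Jund), with edgeR adjusted p-values of 0.993 or more and 0 members at an unadjusted p under 0.05. In all, 1 feature was called (0.00657%) and 3.44% had an unadjusted p under 0.05. DESeq2 also called 0 members. The 95% intervals were wide for Fos (-1.09 to 0.80) and Fosb (-0.79 to 1.00), so a change of up to about that size was not detectable with 8 samples against 12.

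**Figure D2:**
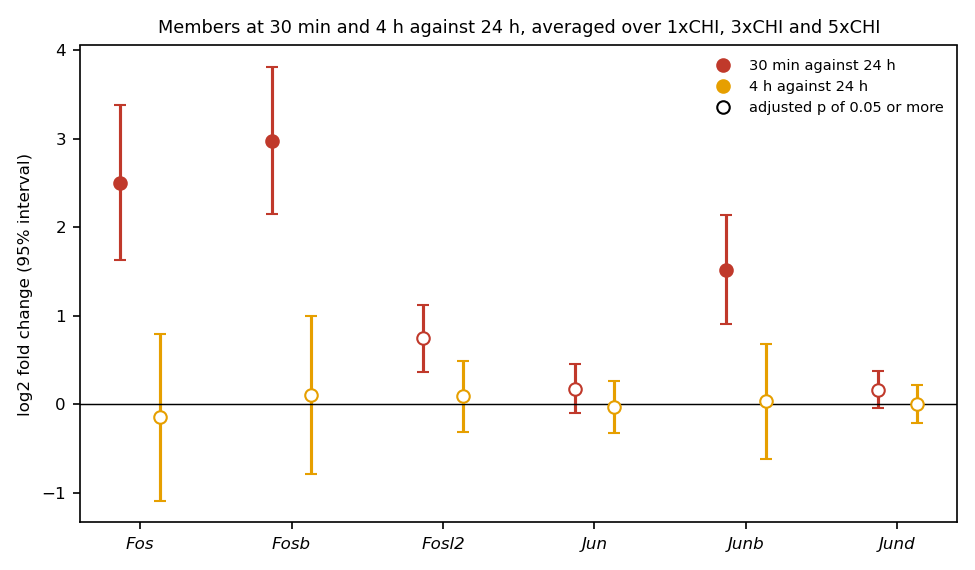
Log2 fold changes of the 6 members with 95% intervals from the edgeR fit, for 30 min against 24 h (red) and 4 h against 24 h (orange), with open points for an adjusted p of 0.05 or more. Fosb (2.98), Fos (2.50) and Junb (1.52) are the filled points, and every 4 h point lies within 0.15 of 0.

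When 30 min, 4 h and 24 h were tested jointly for equality after each injury number, edgeR called 2 members, Fosb (edgeR adjusted p = 0.00444) and Fos (edgeR adjusted p = 0.0488), among 5 features in all (0.0328%). With an unadjusted p under 0.05 there were 4 members and 4.25% of features. Fosb was called in each of the 39 fits without 1 sample, whereas Fos was called in 9 of them.

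Each time point was also compared with the group that preceded its injury: sham-injured, 2xCHI or 4xCHI. In these 9 comparisons edgeR called no feature (0% each), and the counts at an unadjusted p under 0.05 are given beside each, while DESeq2 called 1 member over the 9. After the first injury at 30 min, 3 members had an unadjusted p under 0.05, all higher, against 19.7% of features: Fosb at a log2 fold change of 2.13 (SE 0.688), Fosl2 at 0.68 (SE 0.318) and Jund at 0.39 (SE 0.175). Fos (0.89, SE 0.719), Junb (0.63, SE 0.517) and Jun (0.12, SE 0.237) did not. Without the low 30 min sample 27, Fosb (2.61), Fosl2 (0.96) and Jund (0.62) had edgeR adjusted p-values of 0.0135, 0.0374 and 0.0147, while the 9 comparisons without that sample held 3602 calls in all. Other left-out samples lowered the estimates: Fosb was 1.35, Fos 0.33 and Jun -0.08 without sample 14, Jund was 0.19 and Junb 0.26 without sample 13, and Fosl2 was 0.48 without the sham-injured sample 39. Without the sham-injured sample 20, Fos was 1.51 and Junb 1.12. None of these had an edgeR adjusted p under 0.05.

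After the third injury at 30 min, Fosb (3.84, SE 0.813, 14.4-fold), Fos (2.82, SE 0.827) and Junb (2.00, SE 0.578) had an unadjusted p under 0.05, against 1.88% of features. Fosb was the second of all features by p, with an edgeR adjusted p of 0.352 and an adjusted p of 0.00261 with DESeq2. Jun (0.48, SE 0.254), Fosl2 (0.20, SE 0.348) and Jund (0.15, SE 0.189) did not pass. After the fifth injury at 30 min, 1 member, Fosb (2.28, SE 0.761), had an unadjusted p under 0.05, against 6.36% of features. The others were Fos at 0.86 (SE 0.778), Junb at 0.31 (SE 0.557), Jun at 0.11 (SE 0.254), Jund at 0.03 (SE 0.189) and Fosl2 at -0.15 (SE 0.347). Without the 30 min sample 8 the Fosb estimate was 0.28 and that of Fos was -0.86. Fosb had the largest estimate of the 6 in each of the 3 comparisons at 30 min with all samples.

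Single samples were also compared with the highest sample of another group. At 30 min after 3xCHI, all 3 Fosb samples lay above every 2xCHI sample (as did 5.06% of features) and above every 3xCHI 24 h sample, and all 3 Junb samples lay above every 3xCHI 24 h sample (5.22%). After 5xCHI, all Fos and Fosb samples lay above every 5xCHI 24 h sample (1.34%) and no member lay above every 4xCHI sample (9.94%). After 1xCHI, only Fosl2 lay above every 1xCHI 24 h sample (2.5%), and no member lay above every sham-injured sample (4.6%).

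At the later times few members had an unadjusted p under 0.05. There were 0 members at 4 h after 1xCHI (10.5% of features) and 3xCHI (2% of features) and at 24 h after 3xCHI (4.57%). At 24 h after 1xCHI, Fosl2 was at -0.72 (SE 0.303) against sham-injured, with 6.02% of features under that threshold. At 4 h after 5xCHI, Fos was at -1.93 (SE 0.824) against 4xCHI (5.33%). At 24 h after 5xCHI, Fos was at -2.05 (SE 0.748), Junb at -1.26 (SE 0.521) and Fosl2 at -0.74 (SE 0.323) against 4xCHI (6.44%). These 3 estimates share the 4xCHI group, in which sample 25 was high for Fos (98.1 CPM), Junb (181 CPM) and Fosl2 (54.5 CPM). Without sample 25 they were -1.07, -0.52 and -0.28, and Fos at 4 h after 5xCHI was -0.95.

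No difference in the 30 min response was detected between 1xCHI, 3xCHI and 5xCHI. The test of that difference gave edgeR adjusted p-values of 0.996 for all 6 members, 0 features called (0%) and 4.45% at an unadjusted p under 0.05, with no member among them. The edgeR test for equality of sham-injured and 1xCHI to 5xCHI at 24 h gave 0 called features (0%), no member at an unadjusted p under 0.05 and 4.58% of features there. DESeq2 called no member in either test. With 3 samples per group at 30 min and both high and low samples in each, these tests do not show that the responses were alike.

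Fos, Fosb and Junb varied together from sample to sample. Over the 39 samples, Pearson's r of log2 CPM was 0.953 for Fos and Junb, 0.894 for Fos and Fosb and 0.888 for Fosb and Junb, and on deviations from the group means it was 0.937, 0.879 and 0.849. Fosl2 had an r of 0.634 with Junb and 0.630 with Fos, and the lowest of the 15 pairs was Fosl2 with Jun (0.124). These are descriptions over samples that share library depth and tissue composition. Spearman's rho was 0.893 for Fos and Junb, 0.744 for Fos and Fosb and 0.750 for Fosb and Junb.

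The ratio of Fosb to Fos on the CPM scale was looked at after the values were seen and is given with no test. It lay between 0.705 and 1.15 in the 9 samples at 30 min. In the sham-injured sample 20 and the 4xCHI sample 25, where Fos was at 73.6 and 98.1 CPM, it was 0.298 and 0.276. Over the 10 sham-injured, 2xCHI and 4xCHI samples it lay between 0.276 and 0.986, and 2 of the 9 samples at 30 min were above that range. At 4 h it was above 1 in 2 samples, the 5xCHI sample 10 (1.76) and the 1xCHI sample 16 (1.27), in which Fos was at 15.7 and 16.5 CPM. At 24 h it lay between 0.417 and 0.951.

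**Figure D3:**
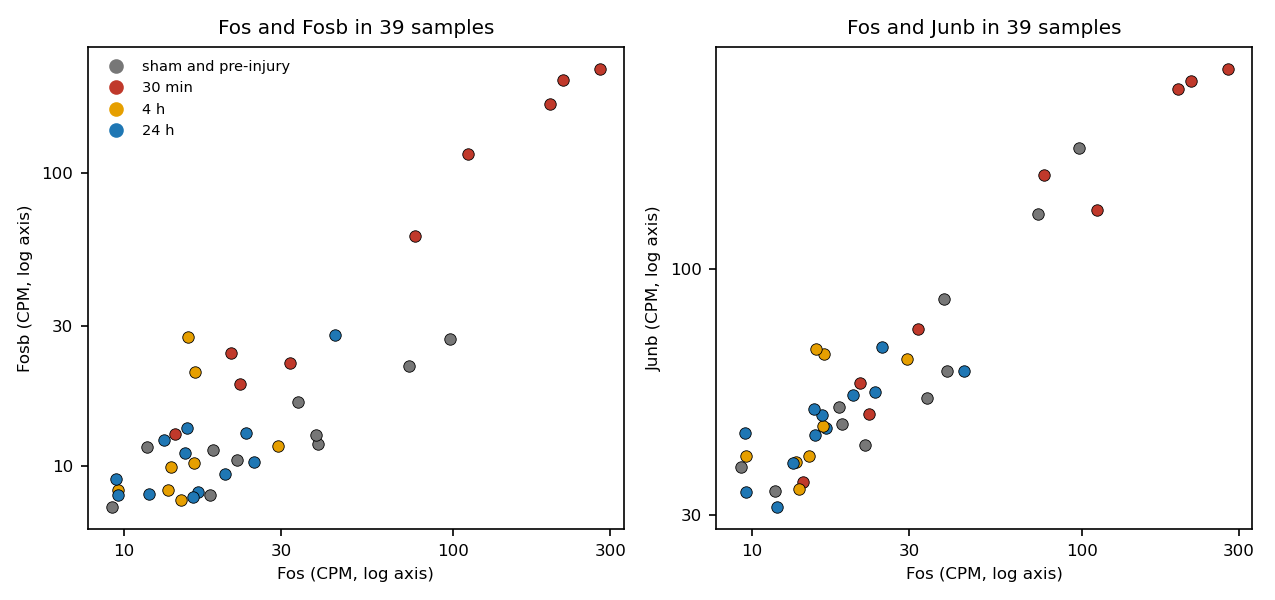
Fosb (left) and Junb (right) against Fos in CPM on log axes, 1 point for each of the 39 samples, colored by time. In the left panel the 2 gray samples with Fos at 73.6 and 98.1 CPM lie below the red 30 min samples of like Fos level, with Fosb at 21.9 and 27.0 CPM, while in the right panel they lie among them.

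Levels were also compared per kb of exon, with the exons of all annotated transcripts of a gene merged. These lengths were 2.35 kb (Fos), 6.24 kb (Fosb), 9.68 kb (Fosl2), 3.19 kb (Jun), 2.30 kb (Junb) and 1.67 kb (Jund), and the order depends on that choice. On this scale Jund was the most abundant subunit in 36 of the 39 samples, at 70.5 ± 3.60 CPM per kb in sham-injured mice (SD, n = 4). Junb followed at 30.6 ± 17.6, Fos at 15.4 ± 11.1 and Jun at 14.6 ± 1.98, and Fosl2 (3.68 ± 1.36) and Fosb (2.31 ± 0.979) were lowest. In these sham-injured mice Fos ran from 7.77 to 31.3, highest in sample 20, and Jun from 12.5 to 17.2, so their order is not firm. At 30 min, Fos (45.7 ± 42.2 CPM per kb, n = 9) exceeded Jun (19.1 ± 5.78) and Fosb (15.4 ± 13.9) exceeded Fosl2 (4.12 ± 1.95) in the means, with wide spread. Fos, Fosb and Junb together made up 23.5 to 71.1% of the summed level of the 6 genes at 30 min (median 44.6%), 19.8 to 27.3% at 4 h and 15.7 to 36.6% at 24 h. The summed level ran from 99.7 to 381 CPM per kb at 30 min and from 108 to 159 CPM per kb at 24 h after 1xCHI, 3xCHI or 5xCHI. Over the sham-injured, 2xCHI and 4xCHI samples the share was 17.4 to 51.6% and the summed level 114 to 242 CPM per kb, both highest in the 4xCHI sample 25. A transcript share is not a share of protein or of dimers.

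**Figure D4:**
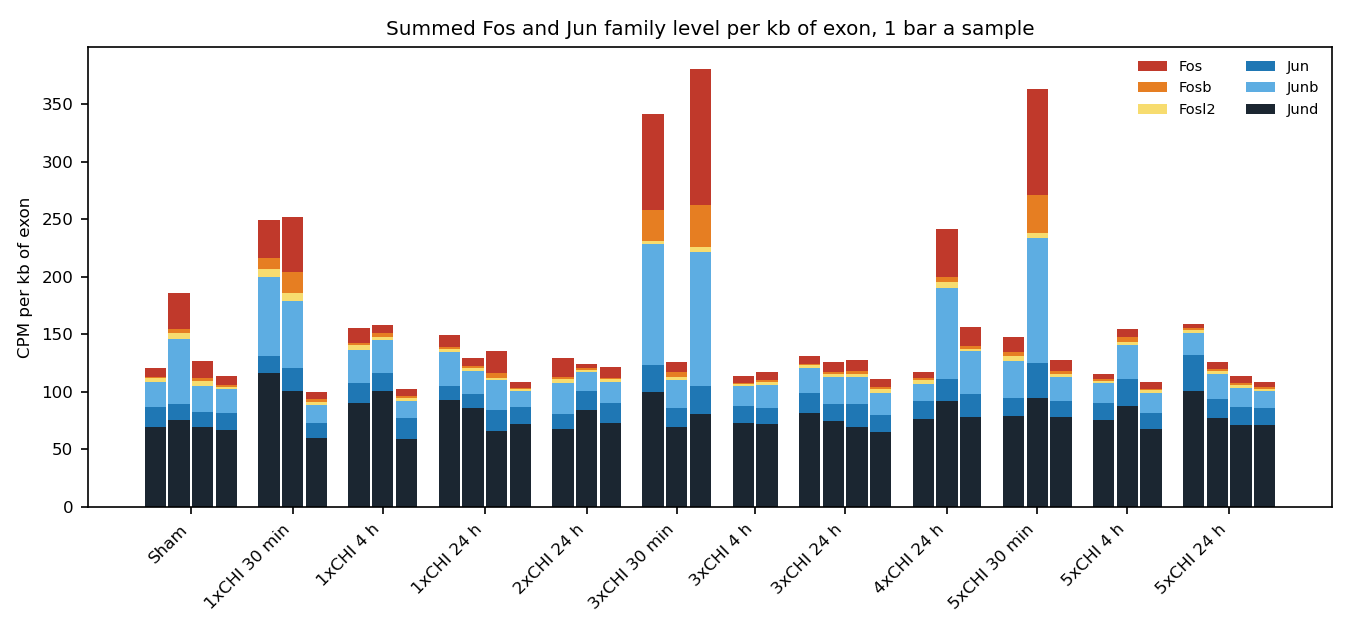
Summed level of the 6 genes in CPM per kb of exon, 1 stacked bar for each of the 39 samples in the order of the groups, split by gene. Jund (black) is the base of every bar, and the 6 tallest bars, from 242 to 381 CPM per kb, are 5 samples at 30 min and the 4xCHI sample 25.

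The genes whose log2 CPM was most like that of each member over the 39 samples were named by Pearson's r. For Fos the 3 highest correlations were with Dusp1 (r = 0.930), Nr4a1 (0.929) and Btg2 (0.901), for Fosb with Ccn1 (0.920), Ptgs2 (0.889) and Btg2 (0.880), and for Junb with Dusp1 (0.933), Ccn1 (0.918) and Btg2 (0.916). For Fosl2 they were Nr4a3 (0.830), Kdm6b (0.786) and Midn (0.784). The 3 nearest to Jun were Zfp36 (0.763), Zfp36l1 (0.737) and Zfp36l2 (0.733), a family of proteins that bind AU-rich elements in messenger RNA. For Jund, the ribosomal protein gene Rpl8 (0.896) and the prefoldin subunit Pfdn5 (0.893) were among the 3 highest. These r values were picked as the highest of 15218 features and are descriptions.

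Among 18 other immediate early transcription factors, 17 were higher at 30 min than at 24 h and 6 were called, all higher, with a list median of 0.82 against -0.01 over all features. The 6 were Npas4 (2.83, SE 0.451), which depends on neuronal calcium entry, Btg2 (1.62), Nr4a1 (1.53), Egr4 (1.43), Klf4 (1.32) and Klf2 (1.25), with edgeR adjusted p-values from 0.00243 to 0.0309. Npas4 was the only one of the 18 called by the joint test of the times. At 4 h the list had a median of -0.07 and no calls. The calls of single genes in this and the following lists were not recomputed without single samples.

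Of 18 phosphatases and regulators, 14 were higher at 30 min and 1 was called, Dusp1 (1.22, SE 0.254, edgeR adjusted p = 0.0299), which dephosphorylates MAP kinases, and the median was 0.15. Mean Dusp1 was 72.4 ± 47.2 CPM at 30 min (SD, n = 9) and 29.2 ± 6.26 CPM at 24 h (n = 12). Of 26 upstream kinases and factors none was called, 9 were higher and 17 lower, and the median was -0.03. The 3 smallest p-values there belonged to Elk1 (-0.28, SE 0.077), Crem (0.23, SE 0.083) and Crebbp (0.21, SE 0.077), with edgeR adjusted p-values of 0.225 to 0.438.

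Of 13 partners, 8 were tested and none was called, with 4 higher and 4 lower and a median of 0.08. Mafg (0.20, SE 0.054), Mafk (0.34, SE 0.158) and Maff (0.53, SE 0.326) had the smallest p-values, with edgeR adjusted p from 0.192 to 0.515, and Maff is also in the list of immediate early genes. Fosl1, Batf, Batf2, Batf3 and Atf3 did not pass the count filter. Of 20 genes described as AP-1 targets, 12 were tested and none was called, with 4 higher and 8 lower and a median of -0.16. The smallest p-values were those of Spp1 (-0.94, SE 0.507), Ccnd1 (-0.26, SE 0.163) and Cdk5 (0.12, SE 0.075), with edgeR adjusted p from 0.498 to 0.522. At 4 h no gene of these lists was called.

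**Figure D5:**
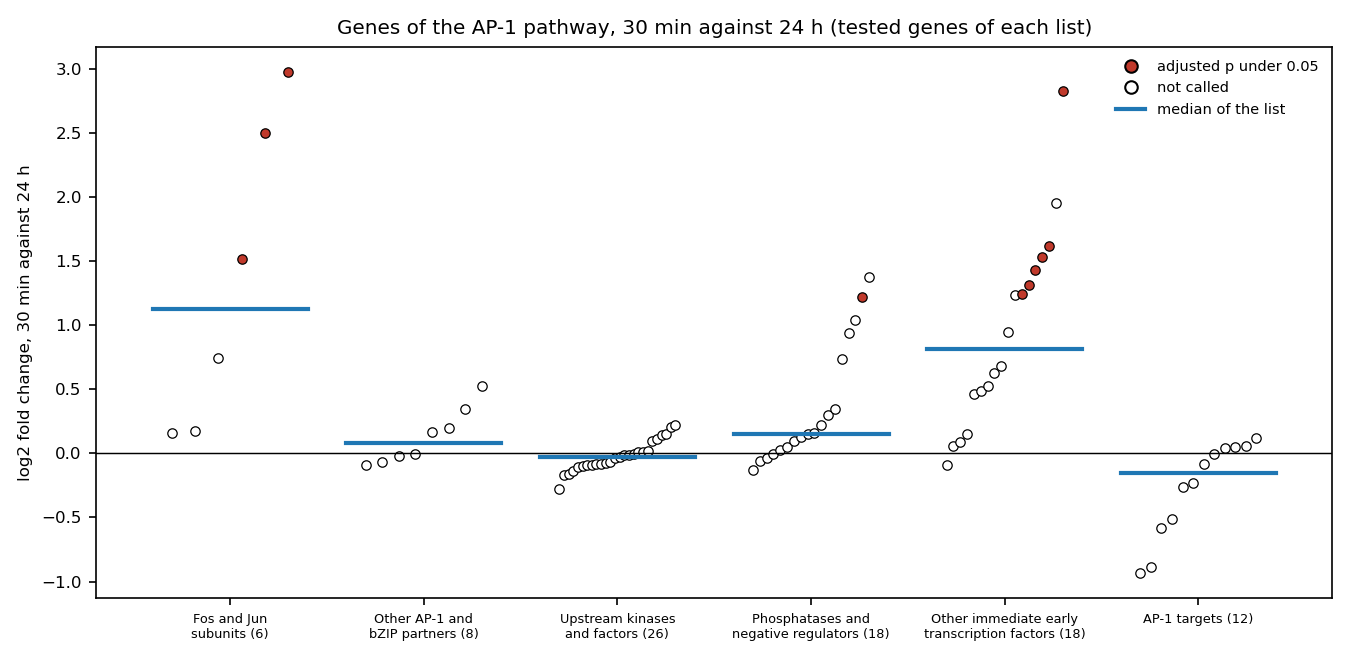
Log2 fold change at 30 min against 24 h for the tested genes of the Fos and Jun subunits and of 5 related lists (number tested in parentheses), with red points for an adjusted p under 0.05 and a blue line at each median. The called genes are 3 subunits, Dusp1 and 6 other immediate early factors, and the medians of the remaining lists lie between -0.16 and 0.08.

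Reads of some members may be shared with neighbours on the other strand, since the strand setting of the libraries is not given in the sources used here. Junb overlaps 173 exon bases (7.52% of its exons) with Prdx2, which had a mean of 3294 counts per sample against 1502 for Junb. Prdx2 had a log2 fold change of 0.04 (SE 0.060, edgeR adjusted p = 0.751) at 30 min against 24 h. Jund shares 877 exon bases (52.6% of its exons) with the antisense gene Gm11175 and Jun 232 (7.28%) with Junos, whose mean counts were 21.5 and 3.03 per sample. Fos, Fosb and Fosl2 overlap no other annotated gene.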

How the data were processed

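RNA was measured in 40 samples by bulk sequencing of left somatomotor cortex. The authors deposited 1 table of expected (estimated) counts per gene, made by a sequencing company, with the mm10 build per the labels. The column names end as the gene-level output of Salmon does. The tool is not otherwise named, and its version and the strand setting are not given in the sources used here. Of the deposited estimated counts, 4.46% were not whole, and all were rounded. The study removed 1 sample as an outlier without naming it in its text, and sample 30 (3xCHI, 4 h) was left out here, which left 39 samples in 12 groups of 2 to 4. A feature was tested if its count was under 10 in at most 4 samples. edgeR 4.0.16 (R 4.3.3) fitted the 12 groups by quasi-likelihood with TMM factors, and p-values were Benjamini-Hochberg adjusted over all 15224 features at 0.05. DESeq2 1.42.0, other scaling, no filter, covariates, other sample sets and each sample left out were the alternatives. The model was tested on simulated counts.

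Levels are CPM (log2 values use a prior count of 1), and list medians stand beside those of all features. The members and gene lists were chosen with earlier results of these data known. The genes named were the 6 members, the 3 features outside the members most correlated with each, and from each list the called genes or otherwise the 3 with the smallest p. A few items that this rule or the marker lists hold are not reported here. Promoters came from RefSeq (GRCm38.p6), exon lengths from GENCODE M21. Summed counts ran from 15926014 to 27859547 a sample. No replicate pair agreed within sampling noise (smallest chi-square per gene 6.85 over 46 pairs). The p-values rest on the spread between samples within groups, estimated over all 12 groups together and not only over the groups compared.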

Additional observations from a re-analysis of the deposited data

Results flagged for a closer look

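In 24 sets of 4 samples, made of the 6 members in each group of 4, the highest or lowest sample was compared with the others by Dixon's ratio, and chance alone singles out about 5% of sets. Fosb in the 1xCHI 24 h group was at 28.0 CPM in sample 26, against 8.05, 8.12 and 10.3 CPM in the other 3. The same sample had the highest summed striatal markers of all samples (638 CPM, median 139), and their part in its Fosb level was not tested. Jun in the 5xCHI 24 h group was at 98.2 CPM in sample 11, against 49.7, 49.9 and 50.4 CPM. Junb in the sham-injured group was at 131 CPM in sample 20, against 46.8, 50.9 and 53.2 CPM, and Fos was also highest there (73.6 CPM).

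Jun at 4 h lay on opposite sides of the pre-injury mean after the first and the third injury, and neither difference passed its test (log2 fold change 0.24, edgeR adjusted p = 0.675, and -0.08, edgeR adjusted p = 1.000). All 3 samples after 1xCHI (56.7, 49.3 and 58.9 CPM) were above the sham-injured mean, by 8.48 CPM on average. Both samples after 3xCHI (47.4 and 45.7 CPM) were below the 2xCHI mean, with a mean difference of -2.53 CPM. The difference between these 2 changes was not tested.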

How the results depend on the processing

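The count of members called for any time difference was 2, and it was 4 with DESeq2, 1 with library size scaling, 1 with the sample number and 1 with samples 1 to 18 as a covariate, 0 with only the groups compared in the fit, and 1 to 3 with each sample left out (3 without sample 27). Over the 8 alternatives that keep every sample of a group, Fosb was called in 7, Fos in 4, Junb in 2 and Fosl2 in 1. The count at 30 min against 24 h was 3, and it was 4 with DESeq2, 2 with the sample number and 2 with samples 1 to 18 as a covariate, 1 with only the groups compared and 1 to 4 with each sample left out (1 without sample 8, 4 without sample 27). Against the pre-injury groups the count was 0, and it was 1 with DESeq2 (44 calls in all), 1 without a filter (6 calls) and 0 to 3 with each sample left out (1 without sample 5, 1 without sample 8, 3 without sample 27). Calls at 4 h and between injuries stayed at 0 with each sample left out. The cause of these shifts was not tested.

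At 30 min against 24 h, Fos lost its call with only the groups compared (edgeR adjusted p = 0.0518), and Junb lost it there (0.0689), with the sample number (0.142) and with samples 1 to 18 (0.0551) as covariates. Over the samples left out, the edgeR adjusted p ran from 0.000645 to 0.0794 for Fos, from 3.64e-05 to 0.00358 for Fosb and from 0.00271 to 0.160 for Junb. Fosb at 30 min after 3xCHI passed without a filter (edgeR adjusted p = 0.0433) and without sample 5 (0.0166).

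Some estimates near 0 changed sign. With the sample number as a covariate, Jund after 3xCHI was -0.0019, and Jun, Junb and Jund after 5xCHI were -0.011, -0.073 and -0.14 at 30 min against the pre-injury group. With samples 1 to 18 as a covariate these 4 were -0.059, -0.014, -0.024 and -0.18. At 4 h against 24 h, the sample number gave -0.0035 for Fosb, -0.018 for Fosl2, -0.19 for Junb and -0.11 for Jund, and samples 1 to 18 gave -0.13 for Junb and -0.12 for Jund. Jund there was also -0.00021 with DESeq2, -0.00013 with median-of-ratios factors, -0.0079 without a filter and -0.00029 with only the groups compared.

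With each sample left out, estimates at 30 min against the pre-injury group ran from -0.076 to 0.24 for Jun after 1xCHI and from -0.19 to 0.40 for Fosl2 after 3xCHI. After 5xCHI they ran from -0.86 to 1.84 for Fos, -0.37 to 0.31 for Fosl2, -0.29 to 0.32 for Jun, -0.70 to 1.06 for Junb and -0.068 to 0.12 for Jund. At 4 h against 24 h they ran from -0.28 to 0.0050 for Fos, -0.18 to 0.32 for Fosb, -0.039 to 0.16 for Fosl2, -0.13 to 0.071 for Jun, -0.075 to 0.11 for Junb and -0.053 to 0.068 for Jund.

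With other tools, scalings, filters, covariates or sample sets, 255 of 280 values of 35 member estimates had the same direction and the same side of the threshold, 18 changed sign, 4 lost the call and 3 gained it. The 3 calls at 30 min against 24 h also stood with sample 30 included. No paired analysis was possible because every sample has its own number and the groups share none.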

Other observations

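Atf3, a stress-induced partner of Jun proteins, did not pass the count filter, and the samples named here were chosen after the values were seen. Its highest levels were 11.7 CPM in the 1xCHI 30 min sample 14, 11.3 CPM in the 5xCHI 24 h sample 11, 8.36 CPM in the 1xCHI 30 min sample 13 and 7.71 CPM in the 5xCHI 4 h sample 10. Sample 11 was also the highest for Jun (98.2 CPM), and sample 10 was the highest 4 h sample for Jun (75.6 CPM). Sample 11 had the highest summed astrocyte, microglia and oligodendrocyte markers of the 39 samples (5889, 481 and 8487 CPM), and sample 10 had the highest of the 4 h samples for astrocytes and microglia (5611 and 419 CPM) and for oligodendrocytes (7565 CPM). The part of these in the Atf3 and Jun levels was not tested.

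The sample left out of the fits, sample 30, had Fos at 15.2 CPM, Fosb at 9.12 CPM, Fosl2 at 26.9 CPM, Jun at 49.4 CPM, Junb at 47.4 CPM and Jund at 120 CPM, and none of these was above the highest sham-injured sample. Fos was below the lowest sham-injured sample (18.2 CPM), and the other members lay within the sham-injured range.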
